A study of Drosophila melanogaster with 9 samples.

Results

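The genes described here encode the subunits of the mitochondrial respiratory chain and ATP synthase of *Drosophila melanogaster*, together with their testis paralogs. They were taken by symbol: genes whose current symbol starts with ND- (complex I), Sdh (complex II), UQCR- or Cyt-c1 (complex III), COX followed by a digit (complex IV) or ATPsyn (complex V, ATP synthase), each read from its brightest probe set that names a single gene. A probe set is a group of short probes on the array that report 1 transcript or a few related ones. Of 93 genes with such a symbol, 75 were measured, out of 11983 genes measured in all. Of the 75, 22 were testis paralogs, that is symbols with an L after the subunit's name such as *COX4L*, and 53 were the other genes, called general genes here. The 53 general genes belonged to complex I (27), complex II (4), complex III (5), complex IV (7) and complex V (10), and the 22 paralogs to complex I (5), complex II (3), complex III (3), complex IV (7) and complex V (4). The 18 genes not measured were 15 general genes, among them the 3 mitochondrially encoded ones, and the 3 paralogs *ND-49L*, *UQCR-6.4L* and *COX7CL*.

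Respiratory chain complexes pass electrons from NADH and succinate to oxygen and pump protons across the inner mitochondrial membrane, and ATP synthase uses the returning protons to make ATP. Many subunits are present as a gene used throughout the fly and a second copy whose transcripts are found mainly in the male germ line. *Drosophila* spermatids fuse their mitochondria into the nebenkern, which elongates along the sperm tail, and transcripts used at that stage are made beforehand in primary spermatocytes.

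Transcripts of whole testes were measured on 9 Affymetrix arrays, 3 for each of 3 genotypes, to compare testes in which *tbrd-2*, a gene of a testis-specific bromodomain protein, was knocked down with controls. Knockdown males (*bam*≫*tbrd-2*RNAi) carried 2 copies of *bam*-Gal4, on the X chromosome and chromosome III, and 1 copy of the *tbrd-2* RNAi transgene on chromosome III. *bam*-Gal4 control males carried the 2 driver copies without the RNAi transgene, and undriven *tbrd-2* RNAi males carried 1 copy of the transgene without the driver. The labels give a *Sb*-marked chromosome III for both controls and none for the knockdown, so that this chromosome and the knockdown cannot be told apart. The *bam* promoter drives Gal4 in late spermatogonia and their early spermatocyte progeny, so that somatic cells of the testis are not targeted. All males were 0 to 2 days old and were kept at 30 °C, and each array held a separate pool of testes from several animals.

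Values were RMA estimates on the log2 scale, where a difference of 1 is a 2-fold difference. In the targeted gene, *tbrd-2* itself, the knockdown arrays read 8.06, 7.82 and 8.05, against 10.52, 10.52 and 10.73 in *bam*-Gal4 and 10.19, 10.39 and 10.36 in undriven testes, so that all 3 knockdown arrays lay below all controls. Arrays of 1 genotype correlated at 0.988 to 0.997 and arrays of different genotypes at 0.98 to 0.995 across all probe sets, and array medians ran from 5.86 to 5.96. Testes have a muscle sheath rich in mitochondria. The 8 measured genes of a muscle list of 11 averaged 8.35 to 8.62 on the knockdown arrays. They averaged 8.24 to 8.73 on *bam*-Gal4 arrays and 8.29 to 8.85 on undriven arrays. These ranges overlapped, and the part of muscle transcripts in the results below was not tested. By limma none of the 8 passed upward against both controls, at the adjusted or the unadjusted p, and 1 passed downward, *Act87E* (−0.29 and −0.37), an actin gene named after its values were seen. Transcripts of other tissues varied between single arrays. The 14 measured accessory gland genes of 16 listed averaged 11.68 on knockdown array 3 and 11.60 on *bam*-Gal4 array 2 but 8.38 to 10.38 on the others, and the 9 measured gut genes of 13 averaged 7.23 on knockdown array 3 and 6.56 on undriven array 3 but 4.96 to 5.56 elsewhere. No gene of these lists, nor of 8 measured fat body genes, passed limma's adjusted p against both controls, and at an unadjusted p below 0.05 there was 1 accessory gland gene, upward. The accessory gland list had medians of 0.78 and 1.04 in the knockdown against *bam*-Gal4 and undriven testes and the gut list of 0.64 and 0.14. Their part in the results below was not tested, and counts without these 3 arrays are given beside the main ones. In RNA of whole testes, fewer cells of a type and less RNA per cell cannot be told apart.

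A gene was said to have risen or fallen where the limma test gave a Benjamini-Hochberg adjusted p below 0.05 against both controls in the same direction. By this rule 17 of the 53 general genes rose in *bam*≫*tbrd-2*RNAi testes (32.1%), 2 fell (3.77%) and 34 did neither. Across all 11983 genes 9.69% rose and 7.73% fell, and across the 1997 genes with a mean log2 value of at least 10, a range that held 44 of the general genes and 18 of the paralogs, 11.9% rose and 21.4% fell. Of the 22 testis paralogs 2 rose (9.09%), 5 fell (22.7%) and 15 did neither. The share of paralogs that fell was thus above that of all genes but close to that of bright genes, whereas the share of general genes that rose was above both. The count of 17 general genes was 8 without knockdown array 1, 10 without *bam*-Gal4 array 3, 11 without undriven array 3 and 5 without the 3 arrays high in accessory gland or gut transcripts, where the share of all genes that rose was 4.92%. This share was 6.73% without knockdown array 1, 6.77% without *bam*-Gal4 array 3 and 7.16% without undriven array 3. The count was 10 with arrays centred on their medians (7.73% of all genes), 11 with the replicate number as a block (7.84%) and 13 with fits of 6 arrays (8.11%). With quantile normalization repeated, a variance trend, array weights, filters on the mean log2 value or the mean over probe sets it was 20 to 23. In those settings 9.86% to 14.7% of the genes tested rose. The count of 5 fallen paralogs was 3 without knockdown array 1, 2 or 3, *bam*-Gal4 array 1 or 3 or undriven array 2, and also without the 3 arrays together and with the replicate block. In these settings 4.45% to 6.62% of all genes fell. The count was 6 with a filter at a mean log2 value of 6, a variance trend or array weights, where 8.44% to 12.2% of the genes tested fell.

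The median log2-fold change of the 53 general genes was 0.18 against each control, with 43 above 0 against *bam*-Gal4 and 45 against undriven testes. The median of all genes was 0.01 and 0.00. For the 1997 bright genes it was −0.04 in each comparison, with 897 and 867 above 0. The median of the 22 paralogs was −0.06 against each control, with 8 above 0 in each comparison. It was small beside its movement between settings: against *bam*-Gal4 it was −0.02 without *bam*-Gal4 array 1, −0.105 without *bam*-Gal4 array 2 and −0.098 with arrays centred on the median, and against undriven testes −0.04 without undriven array 2 and −0.08 without knockdown array 1. Both comparisons share the knockdown arrays and are therefore not independent. Between the controls, *bam*-Gal4 minus undriven, the medians were −0.01 for both classes, with a sign that turned when arrays were centred. Averaged over the 53 general genes, the knockdown arrays read 10.84, 10.74 and 10.78, the *bam*-Gal4 arrays 10.62, 10.62 and 10.61 and the undriven arrays 10.61, 10.67 and 10.60. All knockdown arrays were above all controls. Averaged over the 22 paralogs, the knockdown arrays read 11.13, 11.10 and 11.08, the *bam*-Gal4 arrays 11.21, 11.10 and 11.14 and the undriven arrays 11.15, 11.24 and 11.13, and the genotypes overlapped. Gene by gene, all 3 knockdown arrays lay above all 6 control arrays for 29 general genes and below them for 3, against 16.2% and 13.0% of all genes. For the 22 paralogs these counts were 5 and 7, and for the 1997 bright genes 426 and 630.

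**Figure D1:**
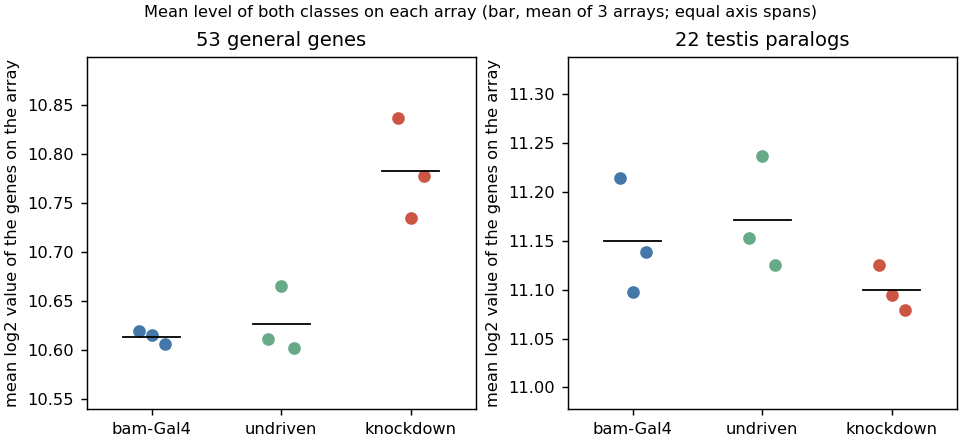
Mean log2 value of the 53 general genes (left) and the 22 testis paralogs (right) on each of the 9 arrays, by genotype; points are arrays, bars are means of 3 arrays, and both axes span the same range without starting at 0. The 3 knockdown arrays lie above all 6 control arrays for general genes, from 10.74 to 10.84, and overlap the controls for paralogs.

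None of the 75 genes reached the limit of the study's methods, a 2-fold difference together with an adjusted p below 0.05, against both controls, which 1.03% of all genes passed. At an unadjusted p below 0.05 against both controls, limma gave 25 general genes higher and 2 lower, and 3 paralogs higher and 6 lower, beside 15.3% of all genes higher and 12% lower. A 1.5-fold limit, which 4.35% of all genes passed, was passed by 4 of the 75 genes, *ND-51L1*, *COX6AL2*, *SdhBL* and *ATPsyndelta*.

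**Figure D2:**
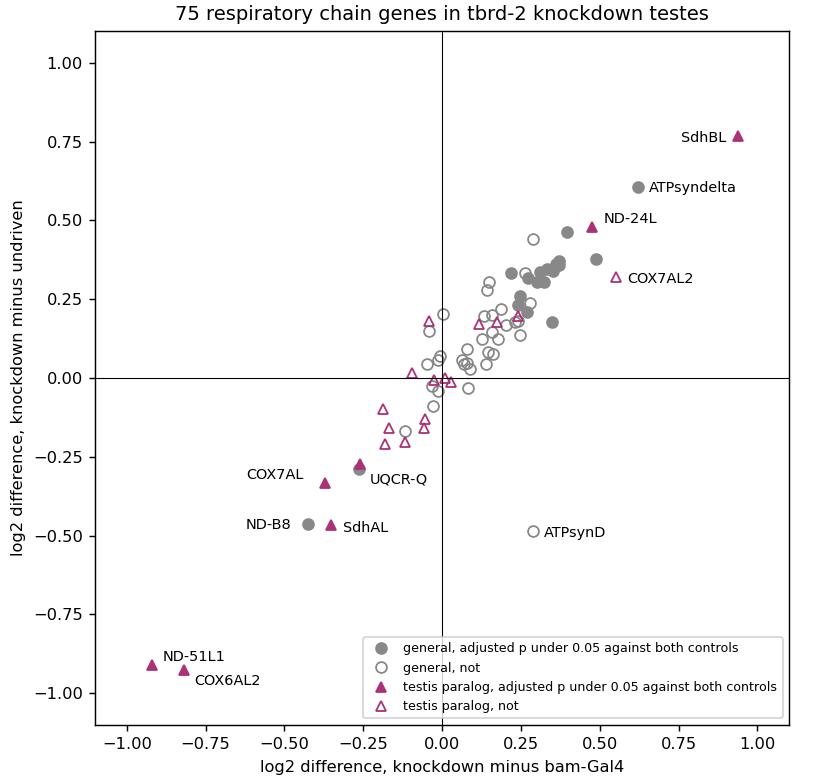
Log2-fold change of each of the 75 genes in knockdown against *bam*-Gal4 testes (horizontal) and against undriven testes (vertical), each from means of 3 arrays; circles are general genes, triangles testis paralogs, and filled symbols passed the adjusted p of 0.05 against both controls. Most general genes lie in the upper right quadrant, the paralogs lie on both sides of 0, and *ATPsynD* stands apart because its levels in the controls differ. The axes share the knockdown arrays.

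Among complex I paralogs, 1 fell and 1 rose, both being copies of genes of the flavoprotein module that accepts electrons from NADH. *ND-51L1*, a copy of the subunit that binds the flavin, read 8.98, 8.93 and 8.92 on the knockdown arrays, 10.01, 9.75 and 9.83 on *bam*-Gal4 arrays and 9.89, 9.92 and 9.75 on undriven arrays. All knockdown arrays lay below every control, and the gap was wider than the spread of any genotype. It fell by 0.92 ± 0.08 (SE) on the log2 scale against *bam*-Gal4 and by 0.91 ± 0.08 against undriven testes, a 1.89-fold and 1.88-fold lower level with an adjusted p of 0.000113 in each. The second copy of the same subunit, *ND-51L2*, read 9.76 to 9.93 on knockdown arrays and 9.91 to 10.08 on control arrays, and its changes of −0.17 and −0.16 did not pass the test (adjusted p = 0.165 and 0.183). *ND-24L*, a copy of the iron-sulfur partner subunit, read 11.13, 10.97 and 11.05 in knockdown, 10.55, 10.57 and 10.60 in *bam*-Gal4 and 10.58, 10.64 and 10.49 in undriven testes. It rose 1.39-fold against both controls (log2-fold change of 0.48 ± 0.07, adjusted p = 0.00117 and 0.00115), and its arrays did not overlap those of the controls. The general gene *ND-24* was not measured. *ND-20L* (copy of an iron-sulfur subunit of the arm that reduces ubiquinone) and *ND-B14.5AL* (copy of an accessory subunit) did not pass against either control, with log2-fold changes of −0.10 to 0.18.

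In complex II, succinate dehydrogenase, which is also an enzyme of the citric acid cycle, 1 of the 3 measured paralogs rose, 1 fell and 1 did neither. *SdhBL*, a copy of the iron-sulfur subunit, read 12.09, 12.28 and 12.09 on knockdown arrays, 11.44, 11.07 and 11.13 on *bam*-Gal4 arrays and 11.40, 11.39 and 11.37 on undriven arrays, with no overlap. It rose 1.92-fold and 1.70-fold (0.94 ± 0.10 and 0.77 ± 0.10 on the log2 scale, with an adjusted p of 0.000298 and 0.000856), the largest rise among the 75 genes. The general gene *SdhB* read 8.62, 8.13 and 8.49 in knockdown testes and 8.20 to 8.47 in the controls, and these overlapped. *SdhAL*, a copy of the flavoprotein subunit that oxidises succinate, read 9.82, 9.75 and 9.83 in knockdown testes, 10.36, 10.04 and 10.06 in *bam*-Gal4 and 10.27, 10.42 and 10.11 in undriven testes. It fell by 0.35 and 0.47 on the log2 scale (adjusted p = 0.0444 and 0.0136), a call that was kept under 9 of the 19 other settings tried, which changed the processing or left arrays out. *SdhCL*, a copy of a membrane anchor, was below all controls on all knockdown arrays, but passed against undriven testes only (−0.21, adjusted p = 0.0473, against −0.18 with adjusted p = 0.0822 for *bam*-Gal4).

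**Figure D3:**
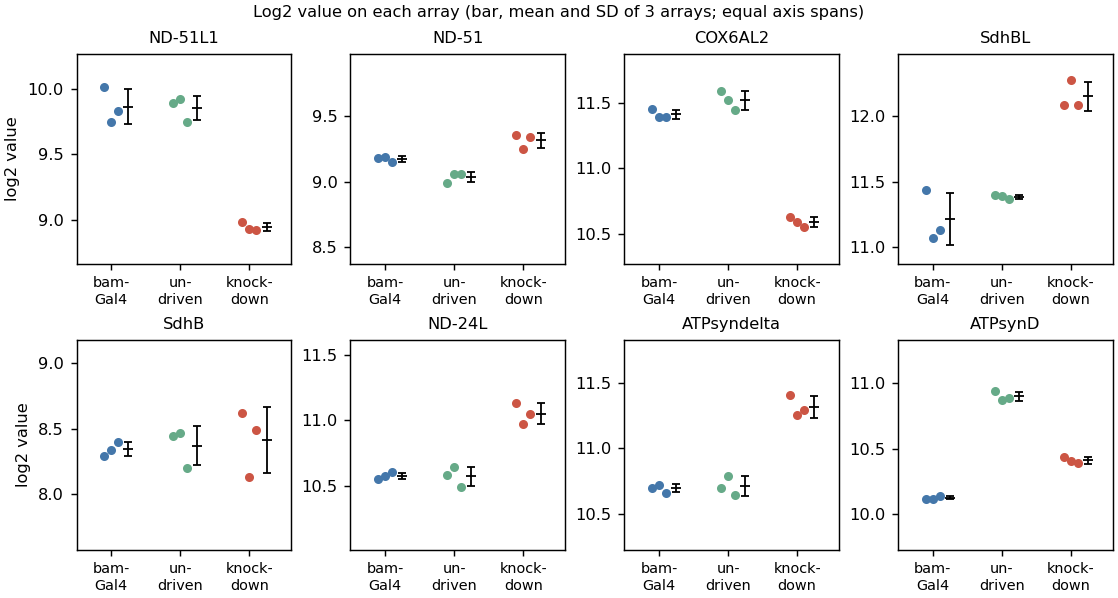
Log2 value on each array for 8 genes, by genotype; points are arrays, black bars the mean and SD of 3 arrays, and every panel spans the same range without starting at 0. The knockdown arrays lie below all controls for *ND-51L1* and *COX6AL2* and above all controls for *SdhBL*, *ND-24L*, *ND-51* and *ATPsyndelta*; they overlap the controls for *SdhB* and lie between both controls for *ATPsynD*.

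Complex III paralogs did not pass against both controls. *Cyt-c1L* (copy of the cytochrome c1 subunit) changed by −0.05 and −0.13 and *UQCR-11L* by 0.01 and 0.00. *UQCR-14L* lay below all controls on each knockdown array, 11.31 to 11.41 against 11.45 to 11.56, but passed against undriven testes only (−0.20, adjusted p = 0.0308, against −0.12 with adjusted p = 0.184).

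Of the 7 complex IV paralogs, 3 fell, beside the 7.73% of all genes and 21.4% of bright genes that fell. Complex IV, cytochrome c oxidase, reduces oxygen, and its nuclear-encoded subunits surround a mitochondrially encoded core. *COX6AL2*, a copy of the subunit encoded by *levy*, read 10.63, 10.59 and 10.55 in knockdown testes, 11.45, 11.39 and 11.39 in *bam*-Gal4 and 11.59, 11.52 and 11.44 in undriven testes. The gap to the lowest control was wider than the spread of any genotype. It fell by 0.82 and 0.93 on the log2 scale (± 0.06 each; adjusted p = 4.64e-05 and 3.24e-05). *COX6AL*, a second copy of the same subunit, read 11.55, 11.54 and 11.54 in knockdown testes, 11.90, 11.73 and 11.78 in *bam*-Gal4 and 11.73, 11.89 and 11.83 in undriven testes. It fell by 0.26 and 0.27 (adjusted p = 0.0264 and 0.0215), a smaller change that was kept under 10 of 19 other settings. *COX7AL* read 11.81, 11.80 and 11.77 against 12.16, 12.17 and 12.16 and against 12.10, 12.16 and 12.12, and fell by 0.37 and 0.33 (adjusted p = 0.00128 and 0.00228). The call held under all 19 other settings. *COX7AL2*, a second copy of the same subunit, read 9.25, 8.88 and 9.19 in knockdown testes, 8.66, 8.55 and 8.45 in *bam*-Gal4 and 8.72, 9.12 and 8.52 in undriven testes, on a probe set whose probes can match more than 1 transcript. Its changes of 0.55 and 0.32 passed against *bam*-Gal4 only (adjusted p = 0.0338 and 0.184). The levels of *COX4L* were nearly equal on all arrays, 12.78 on each knockdown array and 12.76 to 12.82 in the controls, and *COX5BL* and *COX6CL* changed by −0.16 to 0.03 without passing.

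None of the 4 complex V paralogs passed against either control. *ATPsynCF6L* and *ATPsynepsilonL*, copies of a stalk subunit each, and *ATPsynGL*, a copy of a membrane subunit, lay above all controls on the knockdown arrays by 0.12 to 0.24 on the log2 scale, with adjusted p between 0.0687 and 0.2. *ATPsynbetaL*, a copy of the catalytic subunit, changed by −0.19 and −0.10 (adjusted p = 0.071 and 0.328).

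Among general genes, the rises were spread over all complexes, beside the 9.69% of all genes and 11.9% of bright genes that rose. They were 9 of 27 genes in complex I, 2 of 4 in complex II and 1 of 5 in complex III. In complexes IV and V they were 2 of 7 and 3 of 10. The largest was that of *ATPsyndelta*, a subunit of the rotating central stalk of ATP synthase, which read 11.41, 11.25 and 11.29 in knockdown testes, 10.70, 10.72 and 10.66 in *bam*-Gal4 and 10.70, 10.79 and 10.64 in undriven testes. It rose 1.54-fold and 1.52-fold (0.62 ± 0.07 and 0.61 ± 0.07 on the log2 scale, with an adjusted p of 0.000314 and 0.000365). *ATPsynO*, a subunit of the peripheral stalk that holds the catalytic head, read 11.81, 11.74 and 11.69 in knockdown testes against 11.24 to 11.36 in the 6 controls and rose by 0.40 and 0.46 (adjusted p = 0.0015 and 0.000676). *ATPsynCF6*, of the same stalk, rose by 0.22 and 0.33. The remaining complex V genes did not pass against both controls, *ATPsynbeta* (0.00 and 0.20) and *ATPsynB* (0.08 and 0.09) among them. The dimmer probe set of *ATPsynbeta* gave 0.20 and 0.26 and passed against neither control.

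In complex I the largest rise was that of *ND-B14.5B*, an accessory subunit of the membrane arm, which read 11.01, 10.94 and 10.89 in knockdown testes against 10.42 to 10.64 in the controls and rose by 0.49 and 0.38 (adjusted p = 0.000764 and 0.00307). *ND-B14.7*, *ND-B17.2* and *ND-20* rose by 0.34 to 0.37 and *ND-19* by 0.30. *ND-20* is a core subunit that carries an iron-sulfur cluster, and the others are accessory subunits. *ND-B16.6*, *ND-PDSW*, *ND-13B* and *ND-ACP* (mitochondrial acyl carrier protein) rose by 0.18 to 0.35. The probe sets of *ND-19*, *ND-20*, *ND-B14.7* and *ND-PDSW* can match more than 1 transcript. Such probe sets stood for 10 of the 53 general genes and 1 of the 22 paralogs. For *ND-ACP*, the adjusted p against undriven testes was 0.0497, and its 2 dimmer probe sets gave 0.29 to 0.30 and 0.23 to 0.30. *ND-51* passed against undriven testes only (0.28, adjusted p = 0.00902, against 0.14 with adjusted p = 0.126), although its knockdown arrays, 9.36, 9.25 and 9.34, lay above all controls (8.99 to 9.19). In complexes II to IV, *SdhC* (0.33 and 0.35), *Sdhaf3*, which encodes an assembly factor rather than a subunit (0.31 and 0.34), *UQCR-6.4* (0.36 and 0.36), *COX5B* (0.32 and 0.30) and *COX8* (0.27 and 0.32) rose. Of the 17 risen genes, *ATPsyndelta*, *ATPsynO*, *ND-B14.5B*, *ND-B17.2* and *ND-20* kept the call under all 19 other settings, while *ND-13B*, *ND-PDSW*, *ND-B16.6* and *ND-ACP* kept it under 6 to 9.

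Both general genes that fell were accessory subunits. *ND-B8*, of complex I, read 9.21, 9.09 and 9.01 in knockdown testes, 9.58, 9.46 and 9.55 in *bam*-Gal4 and 9.50, 9.66 and 9.54 in undriven testes, with no overlap, and fell by 0.43 and 0.46 (adjusted p = 0.00393 and 0.00261). *UQCR-Q*, of complex III, read 11.86, 11.87 and 11.90 against 12.09 to 12.22 in the controls and fell by 0.26 and 0.29 (adjusted p = 0.0133 and 0.00846). Without the 3 arrays high in accessory gland or gut transcripts only *ND-B8* was called lower.

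One general gene differed between the controls, a comparison in which 2.45% of all genes passed. *ATPsynD*, a peripheral stalk subunit of ATP synthase, read 10.12, 10.12 and 10.14 in *bam*-Gal4 and 10.94, 10.87 and 10.89 in undriven testes, a log2 difference of −0.77 ± 0.05 (adjusted p = 0.000114). The knockdown arrays, at 10.44, 10.41 and 10.39, lay between them, so that the gene was higher than *bam*-Gal4 (0.29) and lower than undriven testes (−0.49), both with an adjusted p below the threshold, and was counted in neither direction. Its probe set can match more than 1 transcript. No paralog differed between the controls by limma, and at an unadjusted p below 0.05 there was 1 higher and 0 lower. Among the other general genes, the largest differences between the controls were 0.20 for *ATPsynbeta* and 0.19 for *ATPsynC*, and neither passed. The dimmer probe set of *ATPsynbeta* differed by 0.06 between the controls.

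Each paralog was then set against its general partner within the same array. The log2 difference of the 2 probe sets was compared between the 3 knockdown and the 6 control arrays with a two-sided exact permutation test over the 84 arrangements of the arrays, whose smallest p is 0.0238. Only the change of the difference between genotypes is read, since the signals of different probe sets do not give relative levels. This was possible for 19 of 22 paralogs, with *levy* as partner of *COX6AL* and *COX6AL2*, *cype* of *COX6CL* and *sun* of *ATPsynepsilonL*. The 19 pairs use 16 partners, since *ND-51*, *levy* and *COX7A* each serve 2 paralogs.

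In 16 pairs the paralog moved down against its partner in knockdown testes and in 3 it moved up, with a median change of −0.30. The exact permutation p, not adjusted over the pairs, was below 0.05 in 15 pairs, 14 of them downward, and 14 of the 15 were at the smallest p the design allows. How often other pairs of genes reach this p was not computed, so the count has no background. Read singly, 16.2% of all genes had all knockdown arrays above all controls and 13.0% below, and a pair can separate through its partner alone. The largest changes were those of *COX6AL2* against *levy* (−1.22) and *ND-51L1* against *ND-51* (−1.13), where the paralog was lower and the partner higher in knockdown testes. *levy* read 11.63, 11.51 and 11.55 on knockdown arrays and 11.19 to 11.24 on control arrays, and rose by 0.36 and 0.34 (adjusted p = 0.00234 and 0.00289). *COX6AL* against *levy* (−0.62), *COX7AL* against *COX7A* (−0.58), *SdhCL* against *SdhC* (−0.535), *UQCR-14L* against *UQCR-14* (−0.52), *COX5BL* against *COX5B* (−0.42) and *ND-51L2* against *ND-51* (−0.38) followed. Of these paralogs, *COX5BL* and *ND-51L2* passed limma's adjusted p against neither control, and *SdhCL* and *UQCR-14L* against undriven testes only. In further pairs the paralog also passed against neither control, with changes of −0.10 to 0.18, and the partner's mean was higher in knockdown testes. These were *COX4L* against *COX4* (−0.32, exact permutation p = 0.0476), *ND-B14.5AL* (−0.30), *ND-20L* (−0.28) and *COX6CL* against *cype* (−0.25). *COX4* itself passed against undriven testes only, and its arrays overlapped those of the controls. The change of *ND-20L* against *ND-20* was −0.39 relative to *bam*-Gal4 and −0.16 relative to undriven testes. In complex V, the changes of *ATPsynbetaL* (−0.245) and *ATPsynCF6L* (−0.13) were smaller.

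*SdhBL* was the only paralog that moved up against its partner with an exact permutation p below 0.05 (0.80 against *SdhB*, at the smallest p). *COX7AL2* moved up by 0.21 (exact permutation p = 0.262), while its sister copy *COX7AL* moved down against the same partner. *Cyt-c1L* (−0.28, p = 0.167), *UQCR-11L* (0.007, p = 0.929) and *ATPsynepsilonL* (−0.04, p = 0.619) did not pass the exact permutation test. The partners of the last 2, *UQCR-11* and *sun*, were dim, with control values of 3.25 to 3.59 and 5.06 to 5.30. When 1 array was left out in turn, 15 to 17 of the 19 pairs had a downward change. Without 1 knockdown array the smallest p of the design is 0.0714, so that no pair could pass.

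**Figure D4:**
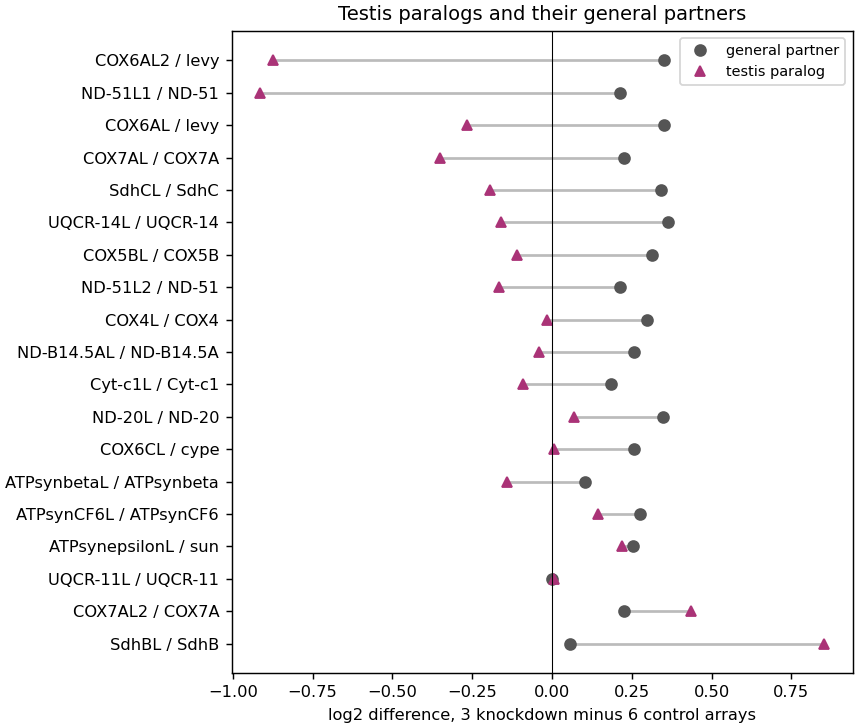
Log2 difference between the mean of 3 knockdown and the mean of 6 control arrays for each of 19 testis paralogs (triangles) and its general partner (circles), joined by a line and ordered by the change of the paralog against its partner. The triangle lies left of the circle in 16 pairs, and in the lowest 3 pairs, *UQCR-11L*, *COX7AL2* and *SdhBL*, it lies right of it.

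Genes of neighbouring steps were read from lists chosen with earlier results of these data known. Of 9 further respiratory chain genes whose symbols do not follow the rule, 8 were measured and 2 rose, *levy* and *cype*, with 0 fallen. Across all genes 9.69% rose and 7.73% fell. The list's medians were 0.14 against each control. *cype*, which encodes another nuclear subunit of complex IV, rose by 0.26 in both comparisons (adjusted p = 0.0417 and 0.0431). Of 15 genes listed as electron carriers and carriers of the inner membrane, 12 were measured. The electron carriers *Cyt-c-p* and *Cyt-c-d* were not among them, so that no electron carrier was read. None of the 12 passed limma's adjusted p against both controls. At an unadjusted p below 0.05, limma gave 1 higher and 2 lower, beside 15.3% and 12% of all genes. The probe sets with the highest means were those of *Porin2*, a channel of the outer membrane (−0.18 and −0.21), and *Ant2*, an ADP/ATP exchanger (0.13 and 0.07).

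Of 32 listed symbols for genes of the citric acid cycle and of pyruvate dehydrogenase, several of them testis copies, 21 genes were measured. By limma 8 fell and 0 rose (9 and 0 at an unadjusted p below 0.05), beside the 7.73% of all genes and 21.4% of bright genes that fell. The list's medians were −0.19 against *bam*-Gal4 and −0.17 against undriven testes. *CG14740* and *ScsbetaA*, a subunit of succinyl-CoA ligase, had the highest means. *ScsbetaA* read 11.72, 11.74 and 11.68 in knockdown testes against 12.09 to 12.28 in the controls and fell by 0.51 and 0.44 (adjusted p = 0.00055 and 0.00118), and *CG14740* fell by 0.38 and 0.46. The other fallen genes, named after their values were seen, were *Scsalpha2*, *Fum3*, *Fum4*, *CG3483*, *CG10749* and *CG7024*, with changes of −0.22 to −0.44.

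**Figure D5:**
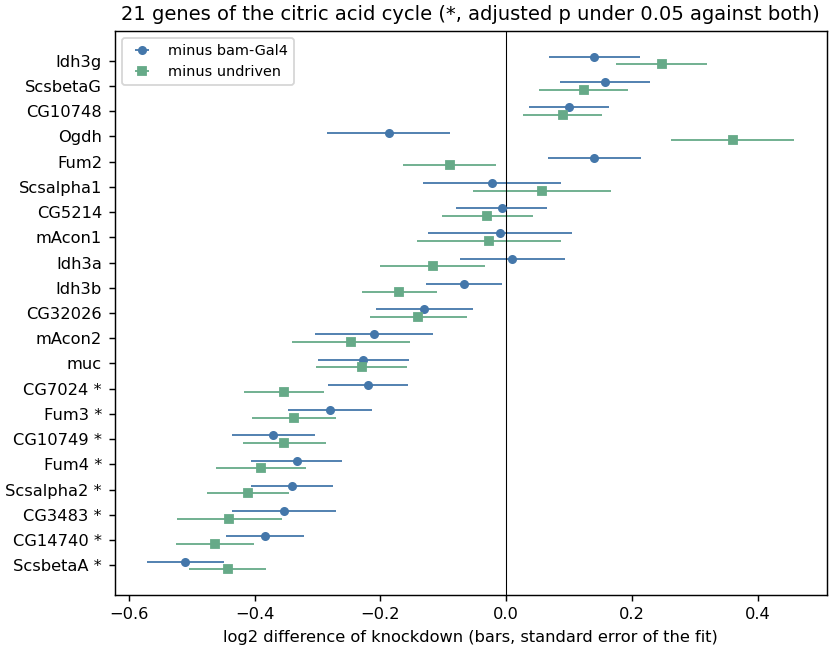
Log2-fold change of knockdown testes against *bam*-Gal4 (circles) and undriven testes (squares) for the 21 measured genes of the citric acid cycle list, with bars for the standard error of the fit over 9 arrays; an asterisk marks genes past the adjusted p of 0.05 against both controls. The 8 marked genes all lie to the left of 0.

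Germline markers were read beside these changes. Of 16 genes of spermatocytes and spermatids 2 rose and none fell, beside 9.69% and 7.73% of all genes. The medians of the 16 genes were 0.00 against *bam*-Gal4 and −0.02 against undriven testes. Their mean, which includes both risen genes, was 11.34 to 11.45 on knockdown arrays, 11.17 to 11.32 on *bam*-Gal4 and 11.21 to 11.26 on undriven arrays. Both risen genes encode testis-specific TAFs, *mia* (1.89 and 1.48) and *sa* (0.61 and 0.97, named after its values were seen). Among the 3 measured spermatogonial genes of 6 none passed limma's test, adjusted or not, and 1 of 7 measured genes of cyst cells and hub fell, *CadN* (−0.42 and −0.43, named after its values were seen). The part of these markers in the changes of respiratory chain genes was not tested.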

How the data were processed

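Testes of 3 genotypes were measured on Affymetrix *Drosophila* Genome 2.0 arrays, 3 per genotype. The authors extracted RNA from pooled testes, read the scans with the affy package and normalised them by RMA, and deposited log2 values per probe set, rounded to 2 decimals, for 18952 probe sets; the sources used here give no tool versions. Per the labels, testes of 30 animals were pooled per array, whereas the methods give another number. RMA equalises the distribution of values between arrays, so that changes are relative to the other genes of an array. The number of arrays limits the precision, and p-values measure the spread between independent RNA pools.

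Probe sets were named from the platform annotation, with symbols updated through the RefSeq gene table (assembly Release 6 plus ISO1 MT). Of the probe sets, 13647 had 1 symbol, 402 had several and 4903 had none, and 13544 of the first were found in the RefSeq table. A gene was read from its brightest single-symbol probe set. *ND-MNLL* was counted as general. Paralogs whose partner has another name (*levy*, *cype*, *sun*) were counted as paralogs, and partners were assigned by subunit.

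limma 3.58.1 in R 4.3.3 fitted 1 mean per genotype to all 18952 probe sets and 9 arrays, followed by eBayes and Benjamini-Hochberg adjustment within each comparison, and shares of genes were taken over 11983 genes. Paralog and partner were compared by exact permutation tests in scipy 1.17.1. The fit was tested on simulated data. Named genes were all paralogs and their partners, the 12 other genes with the largest smaller change among those past the adjusted p against both controls, the 3 genes with the largest difference in each direction between the controls, the brightest general gene of each complex and *tbrd-2*. The risen genes *ND-PDSW*, *ND-13B* and *ND-ACP* fall outside this rule and were named after their values were seen. In gene lists only genes past the 2-fold limit or the 2 brightest were named, with exceptions stated. The alternatives were a replicate block, fits of 6 arrays, repeated quantile normalization, centring, filters at mean log2 values of 5 and 6, a variance trend, array weights, the mean over probe sets, a 1.5-fold limit, subunits without assembly factors, and leaving out each array. The fit without the 3 arrays highest in accessory gland or gut transcripts was chosen after seeing the data. The members and lists were chosen with earlier results of these data known.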

Additional observations from a re-analysis of the deposited data

How the results depend on the processing

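No change that passed the test turned its direction under the alternatives run. Among values that did not pass, the sign turned in 5 medians between the controls (to 0.023 for general genes and 0.022 for paralogs after centring) and in 29 changes of 12 named genes, whose main values were at most 0.09 in size. The count of general genes that rose, 17 in the main fit, was 11 with the replicate block, 10 with arrays centred on the median, 5 without the 3 arrays high in accessory gland or gut transcripts, and 8 to 15 when 1 array was left out. It was 13 with fits of 6 arrays and 23 with quantile normalization repeated. The variance trend and array weights each gave 22, the filters at 5 and 6 gave 20 and 21, and the mean over probe sets 20. With 1 array left out, 6.73% to 9.8% of all genes rose and 5.66% to 7.0% fell. General genes that fell were 2, and 1 without the 3 arrays. The 5 paralogs that fell were 3 with the replicate block, 3 without the 3 arrays and 3 to 5 with 1 array left out. They were 6 with the filter at 6, the variance trend or array weights. Paralogs that differed between the controls were 0, and 1 with array weights. A 1.5-fold limit gave 4 genes past the limit instead of 0. The median of general genes against *bam*-Gal4 was 0.133 after centring, instead of 0.177. The count of pairs with an exact permutation p below 0.05, 15 in the main setting, was 0 to 15 with 1 array left out and 0 without the 3 arrays, where the smallest possible p is 0.133, although 16 of 19 pairs still moved down. The cause of the other shifts was not tested. The replicate numbers of the labels did not pair the arrays: deviations of same-numbered arrays correlated between −0.584 and 0.333. For 53 named genes among the 75, 1856 of 2029 values under alternatives kept their side of the threshold, 134 lost significance and 39 gained it. *ND-PDSW*, *ND-13B* and *ND-ACP*, which kept their call under 8, 9 and 6 of the 19 settings, are not in this tally. *UQCR-11* and *sun* were dim, which limits what their values can show.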

Other observations

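The positions of the genes, which the choice by symbol did not use, were counted by chromosome arm. By the RefSeq gene table (Release 6 plus ISO1 MT), 1 of 22 testis paralogs lay on the X chromosome (4.55%), *SdhBL*, against 10 of 53 general genes (18.9%) and 1869 of 11885 genes with a chromosome arm (15.7%). *SdhBL* was also the paralog with the largest rise. The 6 paralogs on arm 3L and the 6 on arm 3R made up most of the rest, with 5 on 2R and 4 on 2L. These are counts of few genes and were not tested.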
